A study of Mus musculus with 44 samples.

Results

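The 10 genes described here encode the killing machinery and the surface receptors of cytotoxic lymphocytes: Gzma, Gzmb, Prf1, Nkg7, Klrd1, Klrc1, Klrk1, Ncr1, Il2rb and Eomes. They were picked by gene symbol from the 55487 genes of the count tables, with their levels in bulk tissue already known, so their bulk difference is a description and not a test. Natural killer (NK) cells and cytotoxic T cells kill by releasing granules, in which perforin opens the target membrane and granzymes enter through it to start cell death. NK cells decide by adding up activating and inhibitory receptor signals, and they depend on interleukin 15 for survival. Such lymphocytes are scarce in undisturbed brain tissue and enter it during infection or inflammation.

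The samples came from the mouse nucleus accumbens, a striatal brain region, after infusion of a viral vector that carried retinoid X receptor alpha (RXRa, a ligand-activated nuclear receptor) or only a fluorescent protein. In bulk tissue, 4 libraries from males with the herpes simplex virus vector HSV-GFP were compared with 4 from males with HSV-RXRa-GFP. In the sorted experiment, nuclei were labelled D1 or D2, after the dopamine receptor genes Drd1 and Drd2 that mark the main kinds of striatal projection neuron, and came from females and males given the adeno-associated vector AAV9-CAG-DIO-EGFP or AAV9-CAG-DIO-EGFP-P2A-RXRa. DIO names an insert that only Cre recombinase turns on, and the Cre driver, the strain, the age and the time after infusion are not given in the sources used here. The EGFP groups held 5 D1 female, 5 D1 male, 4 D2 female and 5 D2 male libraries, and each of the 4 RXRa groups held 4. All animals, controls included, had received a virus. Nothing in the labels says which libraries come from separate animals, so p-values measure the spread between these libraries, which may be technical.

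Total counts per library were 21567565 to 29167142 in bulk and 12211655 to 27757463 in the 35 sorted libraries with a group. The vector-encoded RXRa had 0 counts in every bulk GFP library and 22.1 to 37.7 CPM (counts per 1000000 of the scaled library size) in the bulk RXRa libraries. Drd1 and Drd2 were both present in bulk, and Drd2 was at 519.7 to 1779 CPM in D2 nuclei against 49.0 to 106.2 CPM in D1 nuclei. Drd1 separated the labels less sharply, with 30.7 to 83.8 CPM in D1 nuclei and 6.49 to 38.6 CPM in D2 nuclei.

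The promoters of 5 members are shown as examples that hold a short motif of the RUNX factors, transcription factors of lymphocyte development. The windows of Klrk1 and Nkg7, not shown, also held it, and that of Eomes did not. Whether this motif has a part in the bulk difference was not tested. Each sequence is the 250 bases before the RefSeq start on GRCm38.p6, 5′ to 3′ on the gene's strand, with motif matches in capitals.
Gzma (chr13:113100982-113101231, strand -): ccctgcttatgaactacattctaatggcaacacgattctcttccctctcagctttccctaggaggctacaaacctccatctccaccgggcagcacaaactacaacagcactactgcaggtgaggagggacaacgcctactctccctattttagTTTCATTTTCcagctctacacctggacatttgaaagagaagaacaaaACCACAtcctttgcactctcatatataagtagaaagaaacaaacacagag
Gzmb (chr14:56262335-56262584, strand -): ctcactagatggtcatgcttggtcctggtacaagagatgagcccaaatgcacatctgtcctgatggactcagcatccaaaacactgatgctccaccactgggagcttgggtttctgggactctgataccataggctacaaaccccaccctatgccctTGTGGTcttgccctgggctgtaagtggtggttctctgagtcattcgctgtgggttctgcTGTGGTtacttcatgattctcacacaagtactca
Prf1 (chr10:61297586-61297835, strand +): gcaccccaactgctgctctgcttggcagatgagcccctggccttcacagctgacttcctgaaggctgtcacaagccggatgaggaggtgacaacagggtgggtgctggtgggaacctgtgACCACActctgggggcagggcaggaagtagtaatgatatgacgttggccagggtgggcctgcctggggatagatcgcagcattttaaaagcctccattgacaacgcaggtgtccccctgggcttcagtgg
Klrc1 (chr6:129678974-129679223, strand -): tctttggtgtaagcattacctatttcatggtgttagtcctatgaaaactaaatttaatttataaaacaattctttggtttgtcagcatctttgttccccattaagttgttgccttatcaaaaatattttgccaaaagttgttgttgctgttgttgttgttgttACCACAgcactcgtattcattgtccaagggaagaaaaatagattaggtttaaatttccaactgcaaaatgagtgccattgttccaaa
Ncr1 (chr7:4337474-4337723, strand +): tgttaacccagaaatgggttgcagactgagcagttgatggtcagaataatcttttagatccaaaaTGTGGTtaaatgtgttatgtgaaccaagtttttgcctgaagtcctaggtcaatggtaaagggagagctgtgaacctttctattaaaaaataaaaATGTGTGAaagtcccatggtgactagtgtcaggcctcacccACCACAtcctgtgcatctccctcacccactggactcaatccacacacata

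RefSeq windows were at hand for 8 of the 10 genes, with 2 starts for Ncr1, and Klrd1 and Il2rb had none in the table used. The RUNX motif TGTGGT, searched on both strands, was found in 8 of the 9 windows and 14.05% of 32851 promoter windows of the same length. Eomes was the only 1 of these 8 genes without it. The 2 Ncr1 windows overlap and hold the same RUNX and T-box matches, so these matches count in both windows. The T-box motif TCACACNT, which T-bet and eomesodermin can bind, was found in 3 of the 9 windows and 2.95% of all: it is the other capital stretch in Ncr1, and the Nkg7 window also held it. The core of the ISRE, the interferon-stimulated response element, was found in 2, those of Gzma and Eomes, against 2.98%, and the STAT motif TTCNNNGAA in 1, that of Nkg7, against 7.02%. The motif AGGTCANAGGTCA, a spacing that RXR can bind, was found in 0 of the 9 windows and 0.03% of all. No match overlapped another, and a match is a description of the letters, not a site of binding.

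All 10 members were higher with RXRa in bulk tissue, with every RXRa library above every GFP library. The ratio of the group means ran from 3.17 for Gzma to 4.72 for Klrc1, with a median of 3.71. Over the 18579 genes tested in bulk, 6.64% had every RXRa library above every GFP library, and 3.7% were called by edgeR's quasi-likelihood test at a Benjamini-Hochberg adjusted p under 0.05, 3.01% higher and 0.689% lower. All 10 members were called higher. Nothing can be read from that count, since the members were chosen on this contrast.

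**Figure D1:**
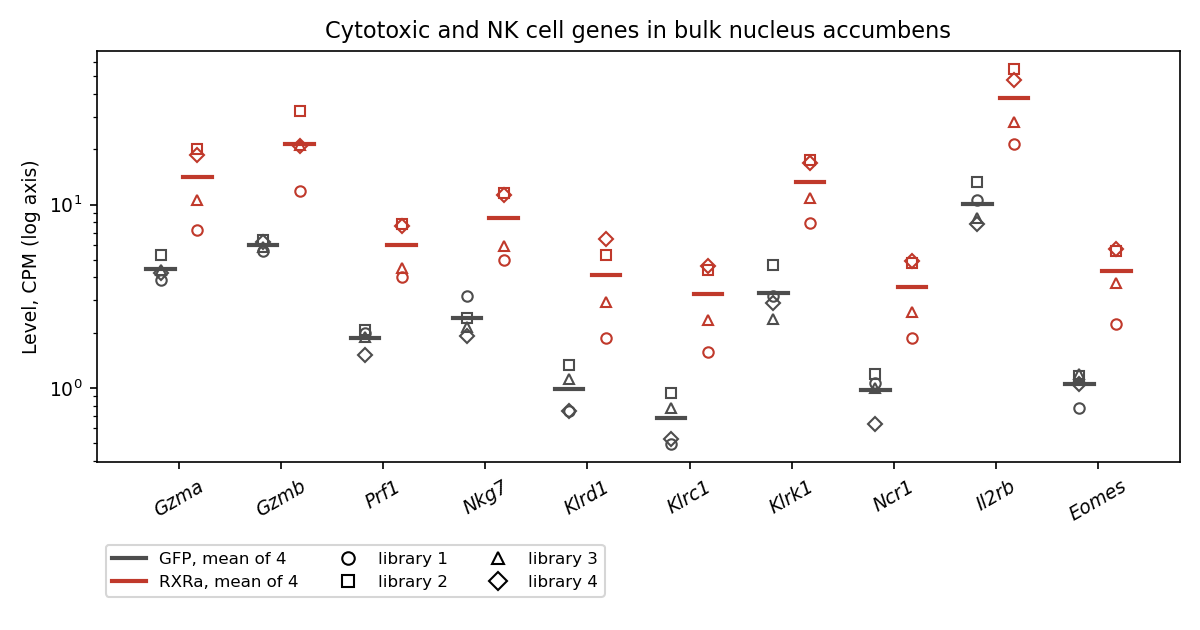
Level of each gene in the 8 bulk libraries, in CPM on a log axis. Open symbols are single libraries and thick bars are group means; in each gene the lowest RXRa symbol lies above the highest GFP symbol, by a factor of 1.36 for Gzma to 1.95 for Prf1.

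Of the granule proteins, Gzmb (granzyme B, a protease that activates caspases; ENSMUSG00000015437, chromosome 14, 56258838 to 56262260) had 5.59, 6.37, 5.88 and 6.23 CPM in GFP libraries 1 to 4 and 11.8, 32.2, 21.3 and 20.7 CPM in RXRa libraries 1 to 4. It was the steadiest member among the controls, whose highest value was 1.14 times the lowest. The mean was 6.02 ± 0.35 CPM with GFP and 21.5 ± 8.36 CPM with RXRa (SD, n = 4 each), a log2 fold change of 1.84 (SE 0.26).

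Gzma (granzyme A, a protease that triggers a caspase-independent death; ENSMUSG00000023132, chromosome 13, 113093825 to 113100981) had 3.89, 5.32, 4.40 and 4.24 CPM with GFP and 7.26, 20.1, 10.6 and 18.6 CPM with RXRa. It had the smallest log2 fold change of the 10, 1.66 (SE 0.30). Prf1 (perforin; ENSMUSG00000037202, chromosome 10, 61297833 to 61304680) had 1.98, 2.06, 1.89 and 1.501 CPM with GFP and 4.02, 7.81, 4.52 and 7.62 CPM with RXRa. RXRa libraries 2 and 4 stood clearly above libraries 1 and 3 for both genes. The log2 fold change of Prf1 was 1.69 (SE 0.25). Nkg7 (a granule membrane protein needed for release of the contents; ENSMUSG00000004612, chromosome 7, 43437073 to 43438249) had 3.15, 2.39, 2.15 and 1.91 CPM with GFP and 5.00, 11.5, 5.90 and 11.2 CPM with RXRa, a log2 fold change of 1.81 (SE 0.30). Nkg7 was the member highest in GFP library 1.

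Of the receptors, Klrd1, Klrk1 and Klrc1 lie together on chromosome 6, within 87.2 kb of the NK gene complex. Klrd1 (CD94, the shared partner chain of the NKG2 receptors; ENSMUSG00000030165, 129591782 to 129598775) had 0.743, 1.34, 1.11 and 0.75 CPM with GFP and 1.87, 5.30, 2.95 and 6.48 CPM with RXRa. Its RXRa libraries were the most spread of all members, the highest 3.46 times the lowest, and its log2 fold change was 2.07 (SE 0.40). Klrc1 (NKG2A, which pairs with CD94 as an inhibitory receptor; ENSMUSG00000030167, 129666015 to 129678973) had 0.495, 0.941, 0.777 and 0.525 CPM with GFP and 1.56, 4.40, 2.35 and 4.62 CPM with RXRa. This was the largest log2 fold change of the 10, 2.24 (SE 0.38), on the fewest reads, 14 to 26 in a GFP library. Its neighbour Klrc2 shares 14.6% of the 100-base words of the Klrc1 transcripts. Of the 50-base words, 38.6% occur in other genes, most of them in Klrc2. The reads of Klrc1 and Klrc2 may thus be split between them. Klrc2 itself had 0.49 ± 0.21 CPM with GFP and 1.45 ± 0.78 CPM with RXRa (SD, n = 4 each) and was not called (edgeR adjusted p = 0.096).

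Klrk1 (NKG2D, an activating receptor for stress-induced ligands; ENSMUSG00000030149, 129610323 to 129623864) had 3.15, 4.71, 2.37 and 2.89 CPM with GFP and 7.88, 17.4, 10.8 and 16.9 CPM with RXRa, a log2 fold change of 2.02 (SE 0.29). Ncr1 (NKp46, an activating receptor found mainly on NK cells and related innate lymphocytes; ENSMUSG00000062524, chromosome 7, 4337724 to 4345164) had 1.06, 1.19, 0.999 and 0.638 CPM with GFP and 1.87, 4.78, 2.58 and 4.90 CPM with RXRa. The log2 fold change of Ncr1 was 1.86 (SE 0.34), within the range of the members that T cells also express. Klrb1c (NK1.1), another NK receptor, had 0.637, 1.38, 0.592 and 0.45 CPM with GFP and 1.17, 4.13, 1.84 and 3.36 CPM with RXRa. Here the groups overlapped, since RXRa library 1 lay below GFP library 2, and the gene was not called (log2 fold change 1.78, SE 0.46, edgeR adjusted p = 0.067).

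Il2rb (the beta chain through which interleukins 2 and 15 signal; ENSMUSG00000068227, chromosome 15, 78479256 to 78495271) gave the most reads, 208 to 365 in a GFP library and 548 to 1586 in an RXRa library. It had 10.6, 13.2, 8.40 and 7.80 CPM with GFP and 21.4, 54.6, 28.3 and 47.5 CPM with RXRa. With this many reads the Wilson 95% intervals, which cover counting error only, were narrow, 19.7 to 23.3 CPM in RXRa library 1 and 51.9 to 57.3 CPM in RXRa library 2. The difference between those libraries of 1 group was thus far larger than counting error. The log2 fold change was 1.92 (SE 0.30). Eomes (eomesodermin, a T-box factor of NK cell and memory T cell development; ENSMUSG00000032446, chromosome 9, 118478212 to 118486132) had 0.778, 1.16, 1.18 and 1.05 CPM with GFP and 2.22, 5.57, 3.73 and 5.71 CPM with RXRa, a log2 fold change of 2.05 (SE 0.31). An antisense gene, Gm33460, overlaps Eomes by 574 bp and the strand setting of the counting is not given, so its level is uncertain to that extent.

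Per kb of exon, the order of the mean levels in bulk GFP tissue was Gzma (4.44 CPM per kb), Gzmb (4.19), Nkg7 (2.63), Il2rb (2.34), Klrd1 (0.77), Prf1 (0.719), Ncr1 (0.632), Klrk1 (0.456), Klrc1 (0.345) and Eomes (0.251). With RXRa the upper end changed order, with Gzmb at 14.98, Gzma at 14.1, Nkg7 at 9.19 and Il2rb at 8.85 CPM per kb, and Eomes stayed last at 1.04. In the GFP order, 2 of the 9 pairs of neighbours had library ranges that did not overlap, Gzmb over Nkg7 and Il2rb over Klrd1, and in the RXRa order 0 of 9. The genes share these libraries, and compared within each library 5 of the 9 pairs kept their order in 4 of 4 libraries in each group. With RXRa these were Gzma over Nkg7, Il2rb over Klrd1, Ncr1 over Klrk1, Klrk1 over Klrc1 and Klrc1 over Eomes.

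The size of the difference varied between RXRa libraries, in a similar order for most members. RXRa library 1 was the lowest for all 10 genes, with a median of 2.11 times the GFP mean, against 2.91 in library 3, 4.89 in library 4 and 5.33 in library 2. Libraries 2 and 4 were the highest pair for 9 of 10. The exception was Gzmb, for which library 3 (21.3 CPM) lay beside library 4 (20.7 CPM). In the controls, GFP library 2 was the highest for 8 of 10. Without RXRa libraries 2 and 4 together, a comparison added after the data were seen, the median log2 fold change of the members was 1.30 in place of 1.89 and 0 of 10 were called, with 0 genes called in the whole table (2998 at an unadjusted p under 0.05). The calls also rested on a control library: without GFP library 4, 0 of 10 members and 9 genes of the whole table were called, in place of 687, while the median log2 fold change of the members was 1.84. The members called were 5 without RXRa library 4 and 6 without GFP library 2, where 175 and 243 genes of the whole table were called.

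**Figure D2:**
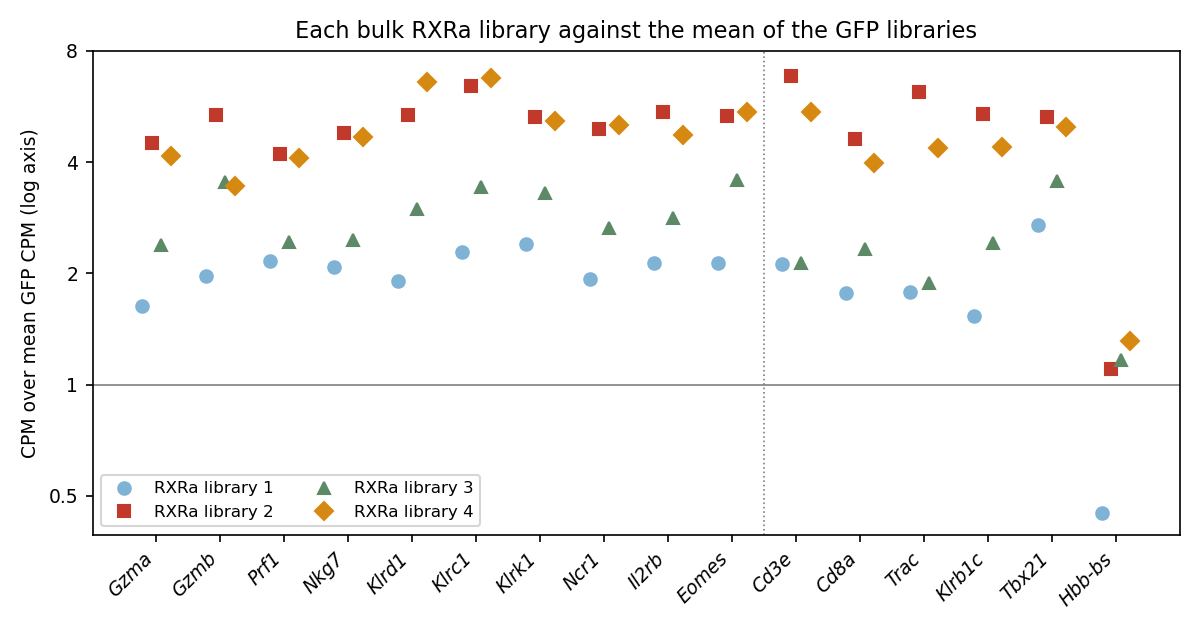
CPM in each bulk RXRa library divided by the mean of the 4 GFP libraries, on a log axis, for the 10 genes (left of the dotted line) and for markers of T cells, NK cells and red blood cells (right). Libraries 2 and 4 lie above 1 and 3 for all but Gzmb among the 10. Hbb-bs, a haemoglobin gene of red blood cells, lies below 1 in library 1 and above 1 in libraries 2 to 4. It had 20.6, 50.6, 53.7 and 60.3 CPM in RXRa libraries 1 to 4, against a GFP mean of 45.9 CPM.

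Markers of other blood and brain cells were read in the same libraries. Over all genes tested in bulk, 3.01% were called higher. Of 12 T cell genes, 7 were called higher, Cd3e among them (log2 fold change 2.05, SE 0.42, edgeR adjusted p = 0.033). The 12 together summed to 52.9 to 66.1 CPM with GFP and 60.1 to 121.9 CPM with RXRa, which overlapped, since RXRa libraries 1 and 3 were at 61.2 and 60.1 CPM. Cd4, which other cells also express, made up most of the control sum and was at 46.1 ± 6.78 CPM with GFP and 39.6 ± 6.92 CPM with RXRa (SD, n = 4 each). The other 11 genes summed to 10.4 to 16.9 CPM with GFP and 24.5 to 72.4 CPM with RXRa, a split made after the values were seen. Monocyte genes summed to 44.7 to 104.6 CPM with GFP and 159.6 to 298.4 CPM with RXRa, with 3 of 6 called higher. The summed levels overlapped between groups for B and plasma cell genes (3.15 to 3.52 against 2.93 to 8.50 CPM), neutrophil genes (1.11 to 4.13 against 0.891 to 2.41 CPM), microglial genes (654.6 to 956.7 against 706.0 to 994.2 CPM) and red blood cell genes (69.7 to 169.2 against 50.2 to 136.3 CPM), with 0 called in each list. Only 3 of 7 B and plasma cell genes and 2 of 8 neutrophil genes had enough reads to be tested. The 3 B and plasma cell genes were above 0, with a median log2 fold change of 0.91. The neutrophil gene S100a8 was lower with RXRa without overlap, at 0.259 to 0.938 against 0.078 to 0.243 CPM. It had only 2 to 6 reads in an RXRa library. Striatal neuron genes were lower with RXRa in sum, at 3525 to 3905 CPM with GFP and 3089 to 3512 CPM with RXRa, which did not overlap. All 7 had log2 fold changes below 0, with a median of -0.18, and 0 were called. Oligodendrocyte genes summed to 4000 to 4312 CPM with GFP and 2409 to 4174 CPM with RXRa, with all 5 below 0, a median of -0.28 and 0 called. The dendritic cell, astrocyte and endothelial lists had 1 gene each called higher, namely Ccr7 (log2 fold change 1.96, SE 0.41), Aqp4 (0.57, SE 0.13) and Cdh5 (0.59, SE 0.11). None of the defining markers Cd3e, Cd8a, Trac, Cd79a, Ccr2, S100a8 and Hbb-bs was at 0 in a bulk library. In bulk tissue, more cells of a type and more RNA per cell cannot be told apart, and which cells carried the 10 transcripts was not tested.

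The summed level of the 10 members was 31.5, 38.7, 29.2 and 27.5 CPM in GFP libraries 1 to 4 and 64.9, 163.6, 93.1 and 144.3 CPM in RXRa libraries 1 to 4. Cd3d, Cd3e and Cd3g, chains of the T cell receptor complex, summed to 2.58, 3.69, 2.11 and 1.84 CPM and to 5.78, 17.5, 6.13 and 13.3 CPM in the same order. Members and T cell receptor chains thus had RXRa libraries 2 and 4 as the highest pair, and the members were 9.35 to 15.2 times the Cd3 sum in the RXRa libraries and 10.5 to 14.98 times in the controls. The vector RXRa followed another order, at 22.1, 27.8, 37.7 and 37.0 CPM, with library 3 the highest.

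**Figure D3:**
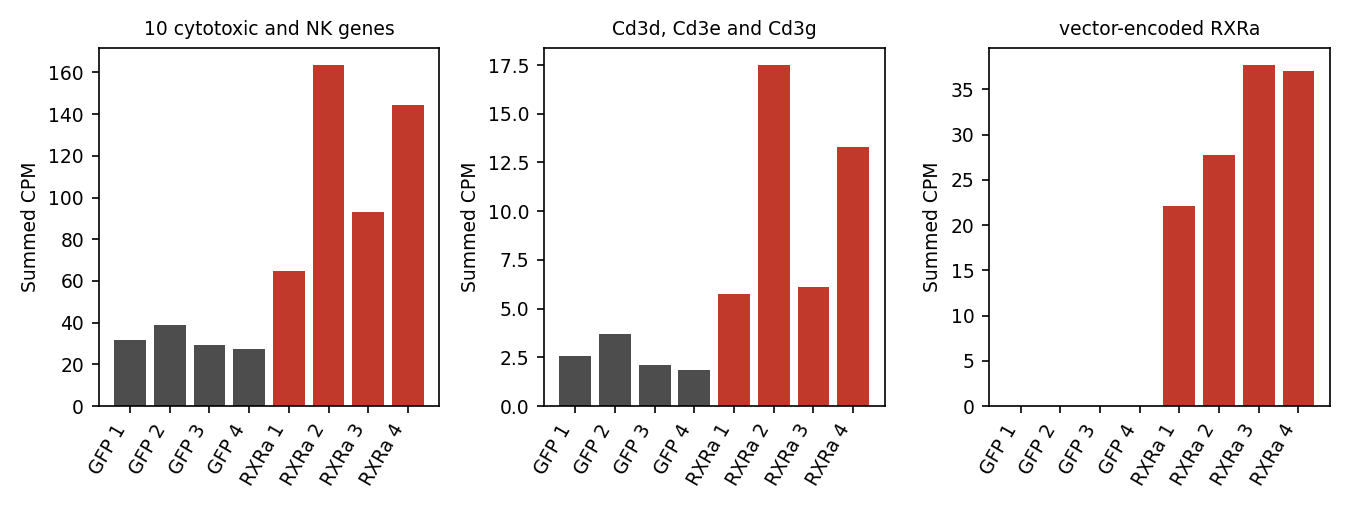
Summed CPM of the 10 genes, of 3 T cell receptor chain genes and level of the vector-encoded RXRa in each bulk library, each panel on its own linear axis from 0. The first 2 panels peak in RXRa library 2 and the last in RXRa library 3, and the 4 GFP libraries are at 0 for the vector-encoded RXRa.

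Outside the 10 members, 116 genes of the same biology were listed in 6 groups, of which 91 passed the filter on low counts in bulk. Of these, 39 rose and 0 fell by the edgeR test, against 3.01% higher over all genes tested, and the median log2 fold change was 1.01 against -0.02 for all genes. The members were proposed with bulk results known and these lists cover the same cells and libraries, so the count is not independent of the members. Without GFP library 4, or without RXRa libraries 2 and 4, it was 0. It was 9 without RXRa library 4, 14 without GFP library 2, 18 without RXRa library 2 and 21 without GFP library 3. In the whole table these fits called, in the same order, 9, 0, 175, 243, 333 and 402 genes, in place of 687.

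Among other NK receptors and adaptors, 15 of the 24 tested rose. The largest rises were in Cd96 (an adhesion receptor for nectin-type ligands; log2 fold change 2.45, SE 0.40), Klra7 (a Ly49 receptor for MHC class I; 2.13, SE 0.33) and Crtam (an adhesion molecule of activated cytotoxic cells; 2.04, SE 0.36). Several Klra genes are close copies of each other and may share reads. Of the ligands these receptors bind, 2 of 6 tested rose. They were Clec2d, a C-type lectin bound by an Nkrp1 receptor (1.00, SE 0.14), and H2-T23, which encodes Qa-1, the ligand of the CD94 and NKG2A pair (0.96, SE 0.20).

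Of the granule and killing genes, 6 of 15 tested rose, led by Fasl (Fas ligand; log2 fold change 2.07, SE 0.37), Ctsw (a cathepsin of cytotoxic cells; 1.79, SE 0.24) and Stx11 (a syntaxin of granule release; 1.24, SE 0.22). Other granzymes, singled out after their values were seen, had other values: Gzmk was at 1.37 ± 0.37 CPM with GFP and 1.58 ± 0.64 CPM with RXRa, and Gzmm at 2.37 ± 0.35 and 2.17 ± 0.34 CPM (SD, n = 4 each). Neither was called (edgeR adjusted p = 0.72 and 0.707), and the difference from Gzma and Gzmb was not tested.

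Of the cytokine and signalling genes, 9 of 22 tested rose. The largest were Il18r1 and Il18rap, the chains of the interleukin 18 receptor (log2 fold changes 2.10, SE 0.39, and 1.75, SE 0.40), and Il2ra, the high-affinity interleukin 2 receptor chain (1.89, SE 0.36). Il15 and Il15ra, the cytokine that sustains NK cells and the receptor that presents it, were also among the 9, at 0.84 (SE 0.18) and 1.06 (SE 0.15). Of the homing genes, 2 of 10 rose, among them Cxcr3, a receptor for interferon-induced chemokines (1.92, SE 0.43). Of the transcription factors, 5 of 14 tested rose, led by Tbx21 (T-bet; 2.04, SE 0.24), Gata3 (1.87, SE 0.31) and Runx3 (1.80, SE 0.33).

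The genes whose profile over the 8 bulk libraries was most like the mean profile of the members were found among 18569 other genes, by the root mean square difference of centred log2(CPM + 1). They were Ctsw (0.105), Grap2 (an adaptor of T cell receptor signalling; 0.111), Tbx21 (0.121), Cd8a (0.121) and Ptpn22 (a phosphatase that restrains lymphocyte receptor signalling; 0.126). Cd8a had 2.02, 2.46, 1.59 and 1.76 CPM with GFP and 3.47, 9.05, 4.56 and 7.78 CPM with RXRa. Its order of RXRa libraries, 2, 4, 3 and 1, is no separate result, since these genes were picked for likeness in the same libraries.

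The sorted nuclei gave another picture. Each of the 10 genes had counts in all 35 libraries, from 3 to 362, and each passed the filter, but their levels followed gene length. Over the 10 genes Spearman's rho between gene body length and the median sorted CPM was 0.92, against -0.01 for the bulk GFP mean, and rho between the sorted and bulk levels was -0.08. These are descriptions over 10 genes that share libraries. Nkg7, the shortest gene at 1.18 kb, had a median of 0.61 CPM and Il2rb, the longest at 16.0 kb, 9.71 CPM.

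A background level was taken from 1576 protein-coding genes on autosomes, each at least 5 kb long and without a read in bulk tissue. Their median level per kb of gene length, called silent-gene density here, was 0.38 to 0.565 CPM per kb in the sorted libraries. The members' own CPM per kb of gene body, divided by the density of the same library, had medians from 0.726 for Klrc1 to 1.62 for Ncr1. Gzma (1.08), Nkg7 (1.02) and Klrk1 (1.06) had medians close to 1. All 10 medians were thus at most 1.62 times the density of genes without a read in bulk tissue, and whether a member had a level of its own above that background was not tested.

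**Figure D4:**
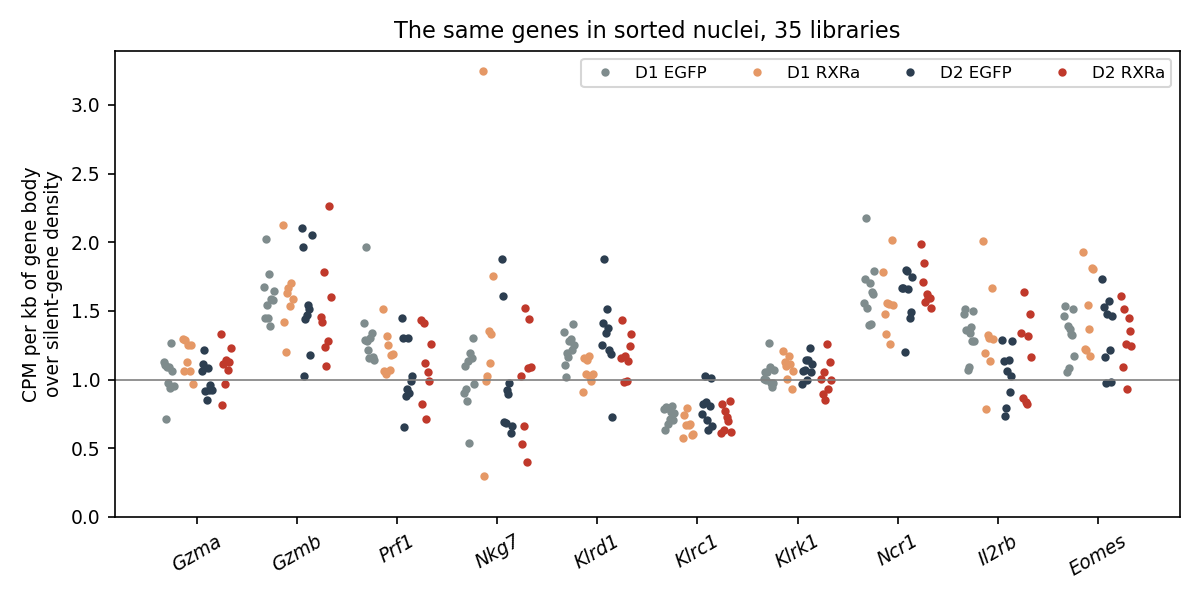
CPM per kb of gene body of each of the 10 genes divided by the silent-gene density of the same library, in 35 sorted libraries; each point is a library and the grey line marks 1. Medians run from 0.726 (Klrc1) to 1.62 (Ncr1), and EGFP and RXRa points overlap for every gene.

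In D1 nuclei none of the 10 members was called, as for all 43902 genes tested, 0% of which were called by edgeR. At an unadjusted p under 0.05 there were 4 members and 3518 genes. DESeq2 also called 0 genes. The log2 fold changes, RXRa against EGFP with the sexes weighted equally, ran from -0.31 for Klrd1 (SE 0.12, adjusted p = 0.581) to 0.23 for Nkg7 (SE 0.24, adjusted p = 0.783), with a median of -0.13. The summed level of the members was 36.4 to 54.1 CPM over the 16 sorted RXRa libraries of both populations and 45.8 to 55.1 CPM over the 19 EGFP libraries, and these ranges overlapped.

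**Figure D5:**
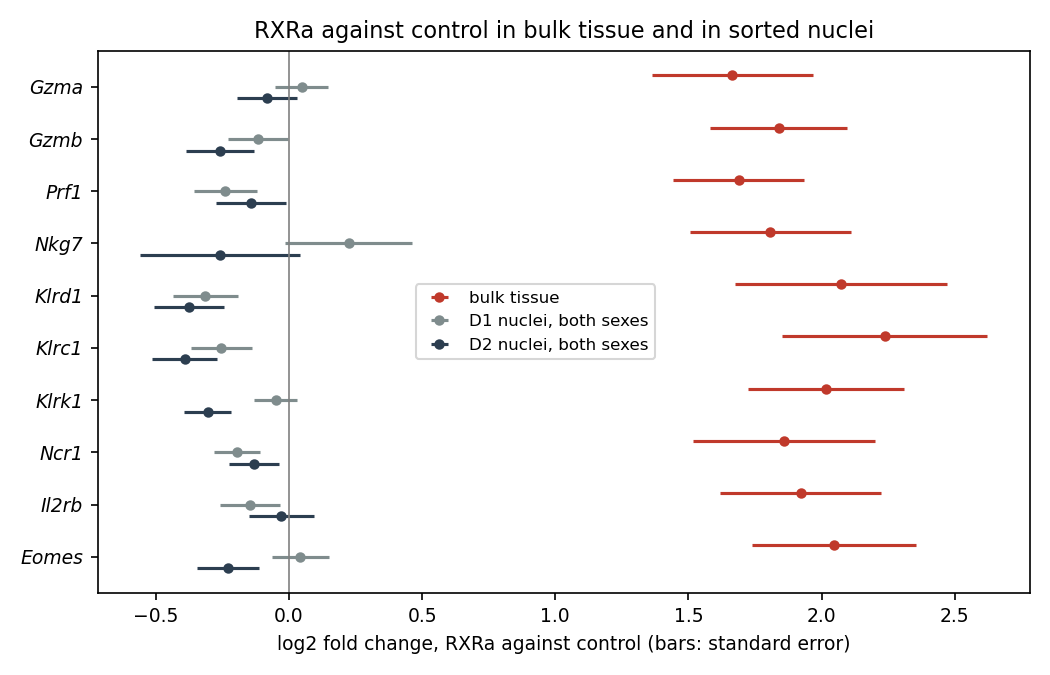
log2 fold change of each gene, RXRa against control, in bulk tissue, D1 nuclei and D2 nuclei; bars are standard errors. Bulk values lie between 1.66 and 2.24, and the values in sorted nuclei between -0.39 and 0.23.

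In D2 nuclei all 10 log2 fold changes were below 0, with a median of -0.24 against -0.04 for all genes, and 3 members fell by the edgeR test, against 7.14% lower and 14.9% higher over all 43902 genes. The 3 were the chromosome 6 neighbours. In D1 their log2 fold changes were -0.25 (Klrc1, SE 0.11), -0.31 (Klrd1, SE 0.12) and -0.05 (Klrk1, SE 0.08), none of them called. In D2, Klrc1 had 4.13, 5.67 and 7.43 CPM (lowest, median and highest of 9 EGFP libraries) and 3.21, 4.30 and 5.36 CPM over 8 RXRa libraries. The ranges overlapped, although all 8 RXRa libraries were below the EGFP mean of their sex. Its log2 fold change was -0.39 (SE 0.12, adjusted p = 0.024). Klrd1 had 2.44, 4.97 and 7.22 CPM with EGFP and 3.01, 3.76 and 4.93 CPM with RXRa, a log2 fold change of -0.37 (SE 0.13, adjusted p = 0.039). Klrk1 had 6.64, 7.97 and 9.18 CPM with EGFP and 4.86, 6.22 and 8.22 CPM with RXRa, a log2 fold change of -0.31 (SE 0.09, adjusted p = 0.018). In both genes 7 of 8 RXRa libraries were below the EGFP mean of their sex and the ranges overlapped.

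The other 7 members had log2 fold changes from -0.26 (Nkg7, SE 0.30, and Gzmb, SE 0.13) to -0.03 (Il2rb, SE 0.12) in D2. Gzmb had an adjusted p of 0.132 and Eomes, at -0.23 (SE 0.12), of 0.145. Of the 113 listed NK genes tested in D2, 20 fell and 4 rose, against 7.14% lower and 14.9% higher over all genes tested. Their median log2 fold change was -0.12. Those with the largest falls by group were Klra9 (-0.36, SE 0.11), Cd48 (a ligand of the receptor 2B4; -0.23, SE 0.08), Gzmc (-0.38, SE 0.12), Il12b (-0.31, SE 0.09), Itga1 (-0.20, SE 0.06) and Prdm1 (-0.23, SE 0.06). The 24 calls became 0 without D2 female RXRa library 4, 2 without D2 male RXRa 5, 9 without D2 female EGFP 5, 12 to 15 without any of D2 female EGFP 1 and 4, D2 male EGFP 1, 2 and 4 and D2 male RXRa 2, and 38 and 40 without D2 female RXRa 3 and D2 male RXRa 1. The calls in the whole table changed in the same fits. In the same order they were 0, 1633, 5794, 6420 to 8676, 13649 and 14766 genes, in place of 9683. The 4 listed genes that rose were Lamp1 (0.45, SE 0.15), Stxbp2 (0.26, SE 0.09), Stat5b (0.18, SE 0.06) and Gzmk (0.14, SE 0.04).

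The background level moved with these D2 calls. The silent-gene density had a median of 0.532 CPM per kb (0.481 to 0.565) in the 9 D2 EGFP libraries and 0.459 (0.386 to 0.537) in the 8 D2 RXRa libraries. In D1 the medians were 0.511 (0.472 to 0.539) in 10 EGFP libraries and 0.476 (0.380 to 0.540) in 8 RXRa libraries. Markers of striatal neurons moved the other way, with 6 of 7 called higher in D2, against 14.9% of all genes tested. With the density as a covariate, 0 members, 0 listed NK genes and 0 genes of the whole table were called in D2, with 2061 genes at an unadjusted p under 0.05. The members' median log2 fold change was then -0.09 in place of -0.24, with Klrc1 and Klrd1 at -0.07 and Klrk1 at -0.11. The 3 member calls were also lost without D2 female RXRa library 4 and without D2 male RXRa library 5, where the median was -0.21 and -0.23. In these fits 0 and 1633 genes of the whole table were called, in place of 9683. Without D2 female EGFP library 5 there was 1 member call, Klrk1, with 5794 genes of the whole table called. The call of Klrd1 was lost without any of 12 libraries, the 3 just named, D2 female EGFP 1, 3 and 4, D2 male EGFP 1 to 4 and D2 male RXRa 2 and 3. Scaling by library totals reversed the balance of directions in D2. With it in place of TMM the median log2 fold change of all genes was -0.20, and the split over the whole table changed from 6548 higher and 3135 lower to 2057 higher and 9334 lower. RLE scaling gave 7252 higher and 2399 lower, and DESeq2 gave 7783 and 2631, so both kept the balance seen with TMM.

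The sexes taken alone gave 0 called members in D1 and D2 by edgeR, as for all genes tested. The unadjusted p was under 0.05 for 2 members in D1 females, 1 in D1 males, 2 in D2 females and 2 in D2 males, and DESeq2 called 1 member in D2 females, where it called 8.36% of all genes, and 0 in the other 3. The difference between the RXRa effects in D2 and D1 was not called for any member either (0% of all genes by edgeR and 0 by DESeq2; 1 member and 3609 genes at an unadjusted p under 0.05). That member was Klrk1, with a difference of -0.26 (SE 0.12, adjusted p = 0.601), so its fall in D2 was not shown to differ from D1, where its log2 fold change was -0.05 (SE 0.08). The differences of Klrc1 and Klrd1 were -0.14 (SE 0.17) and -0.06 (SE 0.18), so their falls in D2 were not shown to differ from D1 either.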

How the data were processed

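The authors deposited 2 tables of whole-number counts per gene, unnormalized, for bulk poly(A) RNA and for ribosomal-RNA-depleted total RNA of sorted nuclei, per the labels' protocols. The submitters' processing notes name FastQC, Trimmomatic, HISAT2, Picard, featureCounts and Subread, with GRCm38. Annotation release, strand setting and intron handling are not given in the sources used here. Poly(A) RNA favours spliced transcripts and nuclear total RNA also holds unspliced ones, so tests stayed within a table.

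Counts were tested with edgeR 4.0.16 (R 4.3.3): filterByExpr by group, TMM scaling and the quasi-likelihood test, with Benjamini-Hochberg adjustment over all genes and a threshold of 0.05. Bulk was fitted with its 2 groups and the 35 grouped sorted libraries as 8 groups. Wilson intervals cover counting error only, as reads copied by PCR do not stand for separate molecules. CPM use the TMM-scaled library size. Vector entries stayed out of library sizes and tests. A standard error is the log2 fold change over the root of its F value. The fitting code was tested on simulated data.

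Positions and symbols are those of GENCODE M21 on GRCm38, which held 55394 of 55487 identifiers, and 93 were not matched. The symbols Raet1a, Raet1b and Raet1c found no identifier, so 113 of 116 listed genes could be looked up. The title of 1 sorted library contradicts its vector label, so it was left out of all comparisons.

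The members and lists were chosen with earlier results of these data known. Named beside the members are, for each list and contrast, the called genes with the strongest changes, at most 3 per direction, preset defining markers, and the 5 genes of most similar bulk profile; Il15, Il15ra, Klrc2, Gzmk and Gzmm were added after their values were seen. Some genes that this rule names are not reported here. Alternatives were RLE or library-total scaling, other filters, DESeq2 1.42.0, a replicate block, leaving out libraries and, in sorted nuclei, the silent-gene density as a covariate.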

Additional observations from a re-analysis of the deposited data

Results flagged for a closer look

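In the 100 combinations of a member and a group of 4 or 5 libraries, 6 had a library whose gap to the others exceeded Dixon's 95% critical value, and chance gives about 1 in 20. All 6 lay in sorted groups. The outlying libraries were D1 female EGFP 3 for Gzmb (3.17 CPM), D2 female RXRa 3 for Prf1 (4.12 CPM), D1 female RXRa 1 for Nkg7 (1.45 CPM), D2 female EGFP 1 for Klrk1 (6.64 CPM), D1 female EGFP 2 for Il2rb (8.34 CPM) and D1 female RXRa 4 for Eomes (4.59 CPM).

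All 10 members had log2 fold changes above 0 in bulk and below 0 in D2. For Klrc1 this held in every library: all 4 bulk RXRa libraries lay above the mean of their controls, and all 8 D2 RXRa libraries below the EGFP mean of their sex, with a log2 fold change of -0.39 in D2. Its level in sorted nuclei had a median of 0.726 times the silent-gene density. Its D2 call was lost with that density as a covariate and without any of 3 libraries, D2 female EGFP 5, D2 female RXRa 4 and D2 male RXRa 5. Over all genes there were 0 calls with the covariate and 5794, 0 and 1633 without these libraries, in place of 9683. The difference between the tables was not tested, since vector, RNA type and sequencing differ with the tissue fraction.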

How the results depend on the processing

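Of the members' recomputed log2 fold changes in bulk, 43 of 150 lost their call and 0 changed sign. In D2, 23 of 239 lost and 3 gained a call, and 6 changed sign. In D1 and in D2 minus D1 no member was called to begin with, and 4 of 249 and 7 of 419 changed sign. In bulk all 10 members were called under RLE scaling, library totals, both other filters and DESeq2, which called 8.71% of all genes. Same-numbered bulk libraries were not paired by the data, with correlations of their deviations from -0.44 to 0.40. In D2 these correlations ran from -0.19 (female 3) to 0.44 (male 1). The D2 male libraries numbered 1 and 5 were each other's best match (0.44 and 0.11), so pairing in the sorted libraries is not settled. With the replicate block, 0 members and 0 listed genes were called in bulk and 0 members and 0 listed genes in D2. In the whole table that block left 0 genes called in bulk and 1 in D2. With a library left out, the members called ranged from 0 to 10 and the listed genes from 0 to 56 in bulk; in D2 from 0 to 4 and from 0 to 40; and the members from 0 to 1 in D2 females and from 0 to 1 in D2 males. DESeq2 called 1 member in D2 females and 8.36% of all genes there. Library totals gave 54 listed genes in D2 in place of 24, with 11391 genes of the whole table called in place of 9683. The silent-gene density as covariate gave 0 members, 0 listed genes and 0 genes of the whole table.

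Signs changed as follows. With library totals, Gzma was at -0.0247 and Eomes at -0.0298 in D1, and Ncr1 at -0.0135 in D2 minus D1. With the covariate, Klrk1 was at 0.0519 in D1, Gzma at 0.134 in D2, and Klrd1 and Klrc1 at 0.0878 and 0.0212 in D2 minus D1. With the replicate block, Nkg7 was at 0.0661 and Il2rb at 0.0218 in D2, and Ncr1 at -0.00273 in D2 minus D1. With a library left out, Gzma ranged from -0.00829 to 0.105 in D1, Il2rb from -0.126 to 0.0178 in D2, Klrd1 from -0.15 to 0.0208 and Ncr1 from -0.0118 to 0.107 in D2 minus D1. The causes were not tested. Depth limits Klrc1 most in bulk (14 reads in its lowest library) and Nkg7 in sorted nuclei (3 reads).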

Other observations

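The sorted library that entered no group had 6.40 CPM of Klrk1, 4.16 CPM of Klrc1, 4.22 CPM of Klrd1 and 10.2 CPM of Il2rb, scaled by its library total alone.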
